A study of Mus musculus with 31 samples.

Results

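The 5p arms of the miR-290 to miR-295 cluster are the miRNAs named miR-290 to miR-295 that were read from the 5′ side of their precursor hairpins. They were chosen by name, and 5 of the 507 miRNAs in the small-RNA-seq table met the rule, namely miR-291a-5p, miR-291b-5p, miR-293-5p, miR-294-5p, and miR-295-5p. The 3p arm of each was also in the table, so that a ratio of arms could be formed for all 5 precursors. The 5p arms of miR-290a, miR-290b, miR-292a, and miR-292b were not among the 507 miRNAs, so that the sums of the 5p arms below leave them out. Across the whole table, 236 miRNAs were 5p arms and 154 precursors had both arms.

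The libraries were made from mouse embryonic stem cells (mESCs) of the ES-E14TG2a background. There were 4 small-RNA-seq libraries for each of 4 genotypes. WT mESCs carried an intact *Ago2* gene. CLIPΔ mESCs had lost, on both alleles, the stretch of the *Ago2* 3′UTR that Trim71, a stem cell RNA-binding protein, contacts. *Ago2* KO mESCs were made with a pair of guides in the coding region, and *Ago2* KO/CLIPΔ mESCs carried both changes. According to the study's methods, the WT line was the parent in which Trim71 had a FLAG tag, and the edited lines were grown from single sorted cells. CLIPΔ was isolated as 2 clones, and the sources used here do not say which clone gave which library. The labels call the libraries biological replicates. The study states that cells for its expression profiling were kept in 2i and Lif, a medium that holds mESCs undifferentiated. RNA-seq of the same genotypes was used for the mRNAs of the miRNA pathway, with 2 libraries for WT and for CLIPΔ mESCs and 4 for each genotype without *Ago2*.

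miRNAs are cut from hairpins by Drosha in the nucleus and Dicer in the cytoplasm. The duplex that Dicer leaves has a 5p and a 3p strand, and an Argonaute protein such as Ago2 keeps one of them as a guide while the other is discarded and decays. The miR-290 to miR-295 transcript is the dominant miRNA source of mouse embryonic stem cells, and most of its 3p arms share a seed (the bases that pair with a target) that promotes the rapid cell cycle and self-renewal of these cells.

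The mature sequences are printed because they show how alike the 5p arms are to each other and how unlike they are to the 3p arms that share their hairpins. They are from RefSeq (GRCm38.p6), which held all 10, and the seed, bases 2 to 8 from the 5′ end, is in capitals. The 5p arms read as follows.
miR-291a-5p: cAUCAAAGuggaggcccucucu
miR-291b-5p: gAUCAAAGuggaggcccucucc
miR-293-5p: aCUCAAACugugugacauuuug
miR-294-5p: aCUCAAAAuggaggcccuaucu
miR-295-5p: aCUCAAAUguggggcacacuuc
The 3p arms of the same hairpins read as follows.
miR-291a-3p: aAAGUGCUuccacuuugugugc
miR-291b-3p: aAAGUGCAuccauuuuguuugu
miR-293-3p: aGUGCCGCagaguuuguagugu
miR-294-3p: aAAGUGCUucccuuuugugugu
miR-295-3p: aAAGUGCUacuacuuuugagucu

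All 5 of the 5p arms are 22 nt long and hold the run UCAAA from base 3. miR-291a-5p and miR-291b-5p share the seed AUCAAAG and are identical at 20 of 22 bases, with the substitutions C1G and U22C counted from the 5′ end of miR-291a-5p. Reads that lack both end bases can therefore fit both. How many such reads there were is not known, so that the split of reads between them is uncertain. The other seeds differ from each other at their last base. miR-293-5p has CUCAAAC, which RefSeq also gives for miR-290a-5p and miR-292a-5p. miR-294-5p has CUCAAAA, shared with miR-292b-5p, and miR-295-5p has CUCAAAU, which no other mature miRNA in RefSeq has. miR-291a-5p and miR-294-5p are identical at 18 of 22 bases, whereas miR-293-5p matches miR-291a-5p at 11 of 22.

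The cluster lies on the plus strand of chromosome 7 in GRCm38.p6, where 9 annotated precursors fall within 2216 bp (chr7:3218626-3220841). miR-291a-5p is at chr7:3218932-3218953, miR-291b-5p at chr7:3219494-3219515, miR-293-5p at chr7:3220356-3220377, miR-294-5p at chr7:3220655-3220676, and miR-295-5p at chr7:3220779-3220800. Each lies in the exon of its miRNA gene. In GENCODE vM21 each also lies opposite an exon of the protein-coding gene *Nlrp12* on the minus strand, and the sources used here do not state whether reads were counted by strand. None of the 498 deposited Trim71 CLIP-seq peaks, 26 of them on chromosome 7, overlapped the cluster, and the nearest was 13251 kb away.

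Levels are given in TPM, the deposited unit, which is normalised to library size and mature length, rescaled here so that every library has the same sum. A level is thus a share of the miRNAs in its library, and in such bulk samples fewer cells of a type and less RNA per cell cannot be told apart. The number of reads behind a library, inferred from the step between its low values, was 5411246 to 8349737 for WT and 3133864 to 7889709 for CLIPΔ mESCs, whereas it was 829063 to 1070289 in *Ago2* KO, and 874134 to 1327971 in *Ago2* KO/CLIPΔ mESCs. In small-RNA-seq, WT and CLIPΔ columns carry letters and *Ago2* KO columns carry numbers, so that no set of libraries named alike holds both states of *Ago2*. Every small-RNA-seq difference between *Ago2* KO and WT below cannot be told apart from a difference between these sets of libraries, including their depth. The RNA-seq columns all carry numbers and their depth is unknown, and a difference between sets of those libraries was not tested. Of the mESC markers, 8 of 9 were in the RNA-seq table, and they summed to between 9971 and 13253 TPM in the 12 libraries. Markers of primed or early lineage cells (6 of 8 in the table) summed to 34.0 to 40 TPM in WT, 23.5 to 27.7 in CLIPΔ, 16.5 to 22.1 in *Ago2* KO, and 19.0 to 25.2 in *Ago2* KO/CLIPΔ mESCs, so that WT was the highest. Fibroblast markers (3 of 5) summed to at most 3.73 TPM. Their part in the miRNA values was not tested.

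The 5p arms together made up 5.86% ± 0.419 of all miRNAs in WT, 5.94% ± 0.720 in CLIPΔ, 7.87% ± 0.661 in *Ago2* KO, and 7.28% ± 0.115 in *Ago2* KO/CLIPΔ mESCs (mean ± SD, n = 4 each). The 3p arms of the same precursors made up 38.9% ± 0.655, 33.6% ± 3.57, 24.3% ± 1.08, and 21.6% ± 0.444 in the same order. The 5p sum was thus higher, and the 3p sum lower, in each *Ago2* KO library than in each WT library. Within the 5p arms, miR-291a-5p held 63.0% ± 4.43 of the sum in WT and 21.4% ± 2.80 in *Ago2* KO mESCs. miR-293-5p held 32.0% ± 5.01 in WT and 72.6% ± 3.59 in *Ago2* KO mESCs, and so took the first place. The other members held at most 3.61% of the sum in any library.

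**Figure D1:**
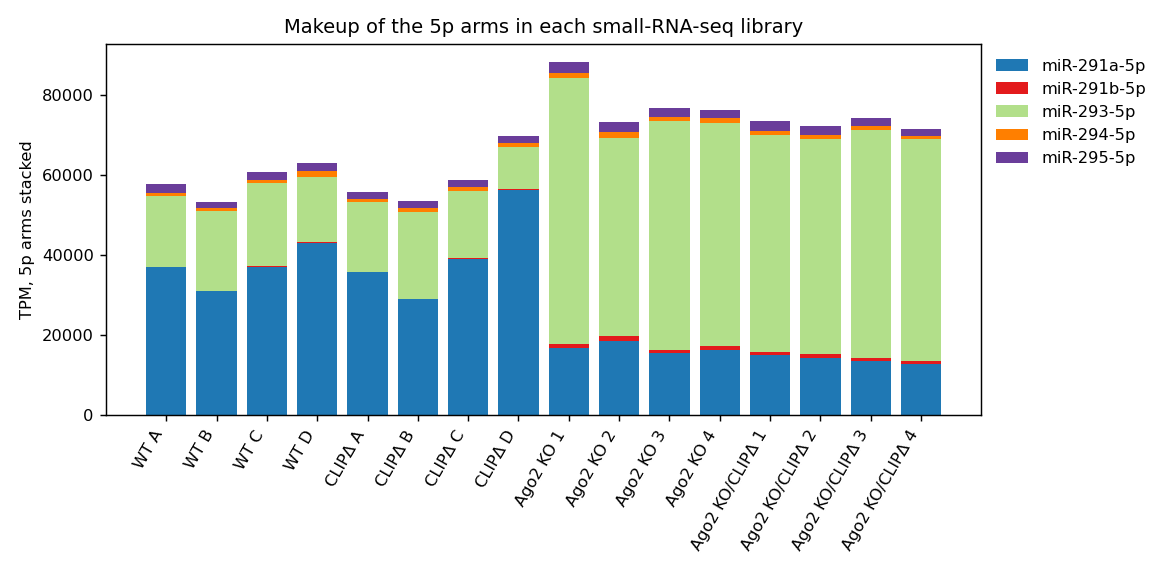
TPM of the 5 members, stacked, in each of the 16 small-RNA-seq libraries, with the y axis starting at 0. miR-291a-5p is the widest band in the 8 WT and CLIPΔ libraries and miR-293-5p in the 8 libraries without *Ago2*.

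miR-291a-5p, the most abundant 5p arm of WT mESCs and the 7th miRNA of the whole table by mean, stood at 36959, 30950, 37064, and 43117 TPM in WT libraries A to D. In CLIPΔ libraries A to D it stood at 35668, 28993, 39020, and 56252 TPM. In *Ago2* KO libraries 1 to 4 the values were 16739, 18613, 15395, and 16176 TPM. All *Ago2* KO libraries were thus below all WT and CLIPΔ libraries, and CLIPΔ library D was above every other. In *Ago2* KO/CLIPΔ libraries 1 to 4 miR-291a-5p had 14878, 14323, 13463, and 12830 TPM, all below the *Ago2* KO libraries.

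miR-291b-5p differs from it at both end bases and was the rarest member. It had 87.4, 59.4, 80.7, and 137.8 TPM in WT and 141.2, 116.8, 176.6, and 204.3 TPM in CLIPΔ libraries A to D. It had 911.4, 1212, 860.6, and 986.4 TPM in *Ago2* KO libraries and 922.4, 921.0, 785.1, and 788.9 TPM in *Ago2* KO/CLIPΔ libraries 1 to 4. The libraries without *Ago2* were all above the others, and WT library D overlapped the CLIPΔ range. Behind these values were between 483 and 1277 inferred reads. As a share of both miR-291 5p arms, miR-291b-5p made up 0.241% ± 0.0550 in WT, 0.402% ± 0.0366 in CLIPΔ, 5.58% ± 0.435 in *Ago2* KO, and 5.80% ± 0.219 in *Ago2* KO/CLIPΔ mESCs.

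miR-293-5p had 17651, 19925, 20731, and 16197 TPM in WT libraries A to D. In CLIPΔ libraries A to D it had 17467, 21699, 16879, and 10415 TPM, so that library D was the lowest. It had 66630, 49481, 57149, and 55817 TPM in *Ago2* KO libraries and 54080, 53658, 57010, and 55286 TPM in *Ago2* KO/CLIPΔ libraries 1 to 4. Each of these 8 libraries was above each WT and CLIPΔ library. miR-293-5p was the 10th miRNA of the table by mean in WT and the 5th in *Ago2* KO mESCs.

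miR-294-5p and miR-295-5p, whose 3p partners are among the most abundant miRNAs of these cells, were lower. miR-294-5p had 879.1, 690.3, 949.1, and 1590 TPM in WT, 621.8, 824.8, 946.6, and 1091 TPM in CLIPΔ, 1250, 1412, 1076, and 1139 TPM in *Ago2* KO, and 1207, 1104, 980.5, and 891.2 TPM in *Ago2* KO/CLIPΔ mESCs. The highest value was in WT library D and the 4 ranges overlapped. miR-295-5p had 2082, 1629, 1836, and 1899 TPM in WT, 1740, 1794, 1696, and 1694 TPM in CLIPΔ, 2798, 2645, 2231, and 2122 TPM in *Ago2* KO, and 2285, 2207, 1930, and 1796 TPM in *Ago2* KO/CLIPΔ mESCs. Its *Ago2* KO libraries lay above all WT libraries, whereas its *Ago2* KO/CLIPΔ range overlapped that of WT.

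In WT and CLIPΔ mESCs the order of levels was miR-291a-5p, miR-293-5p, miR-295-5p, miR-294-5p, and miR-291b-5p, and no neighbours in it overlapped. Without *Ago2* the order was miR-293-5p, miR-291a-5p, miR-295-5p, miR-294-5p, and miR-291b-5p. There the last 2 overlapped, at 1219 ± 147 and 993 ± 155 TPM in *Ago2* KO and 1046 ± 139 and 854 ± 77.8 TPM in *Ago2* KO/CLIPΔ mESCs (mean ± SD, n = 4).

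**Figure D2:**
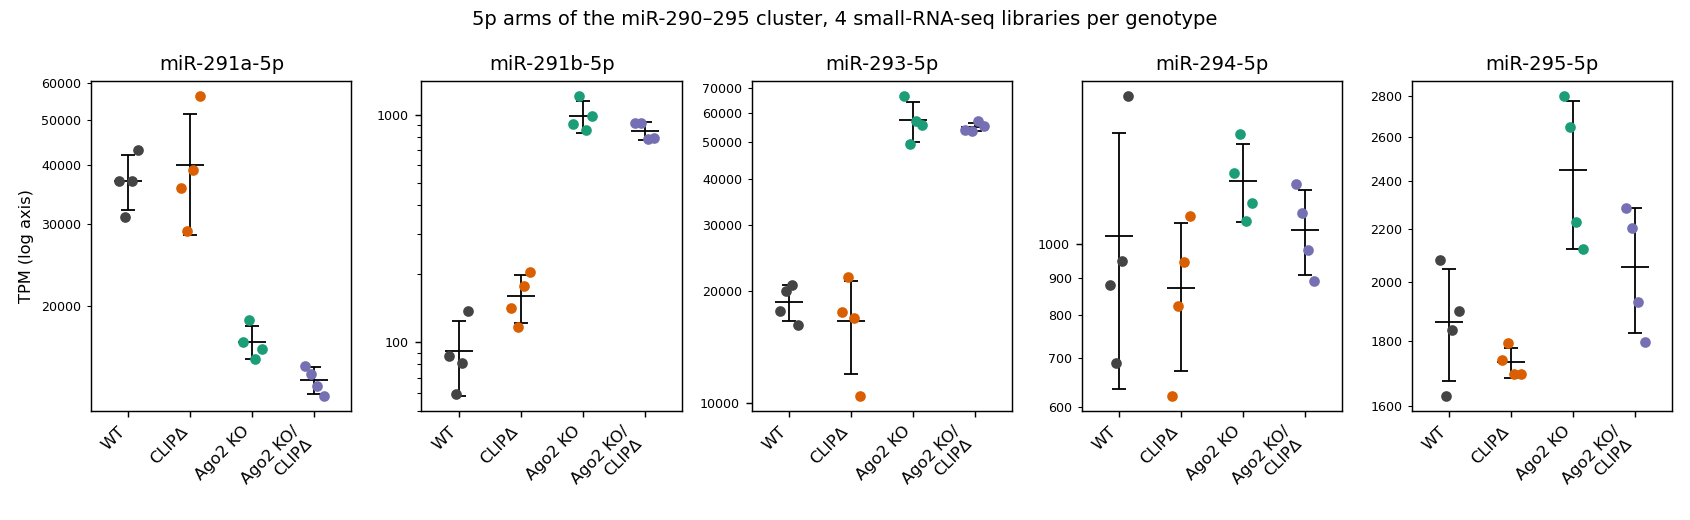
TPM of each 5p arm on a log axis, with 1 point per small-RNA-seq library and the mean ± SD of 4 libraries in black. In miR-291a-5p the points without *Ago2* lie below the others, in miR-291b-5p and miR-293-5p they lie above, and in miR-294-5p the genotypes overlap.

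The ratio of the 5p to the 3p arm of the same precursor, from values of 1 library, does not depend on how the library was scaled. In WT mESCs, miR-291a was the precursor whose 5p arm exceeded its 3p arm in every library, at 2.86 ± 0.420 (SD, n = 4). miR-291b stood at 0.847 ± 0.276, near parity, and miR-293 at 0.405 ± 0.0154. In miR-294 and miR-295 the 5p arm was rare, at 0.00961 ± 0.000838 and 0.00841 ± 0.00154, so that the 3p arm was 104.7 and 121.8 times the 5p arm on average. The last 2 overlapped and the other neighbours in this order did not. The cluster thus held precursors of either arm preference, although the hairpins share 1 transcript and the 5p arms share part of their seeds.

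For miR-291a the ratio was 3.08, 2.45, 2.59, and 3.35 in WT libraries A to D and 3.97, 1.77, 3.28, and 6.27 in CLIPΔ libraries A to D. It was 0.902, 1.52, 0.856, and 0.912 in *Ago2* KO and 0.905, 0.917, 0.763, and 0.703 in *Ago2* KO/CLIPΔ libraries 1 to 4. Every library without *Ago2* was below every library with it, and *Ago2* KO library 2 was the only one of these 8 with more 5p than 3p. CLIPΔ libraries B and D spanned more than the whole WT range.

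For miR-291b the ratio was 0.813, 0.522, 0.857, and 1.19 in WT and 0.890, 0.658, 0.905, and 1.18 in CLIPΔ libraries A to D. In *Ago2* KO libraries 1 to 4 it was 21.3, 32.7, 24.3, and 34.3, and in *Ago2* KO/CLIPΔ libraries 1 to 4 it was 22.7, 19.1, 23.5, and 32.3. The 5p arm thus exceeded the 3p arm in all 8 libraries without *Ago2*, and in the others it did so only in those lettered D. Behind these ratios were 25 to 39 inferred reads of miR-291b-3p in the *Ago2* KO libraries and 32 to 44 where CLIPΔ was also present. Because 5p reads of miR-291a and miR-291b that lack both end bases can fit either, their sums were also compared. This choice was made after the values were seen. The summed ratio was 2.85 ± 0.417 in WT, 3.77 ± 1.84 in CLIPΔ, 1.11 ± 0.340 in *Ago2* KO, and 0.871 ± 0.113 in *Ago2* KO/CLIPΔ mESCs (SD, n = 4). It had to lie near that of miR-291a, since miR-291b made up at most 6.11% of the summed 5p arms and 1.89% of the summed 3p arms in any library. The sum therefore does not bear on the shift of miR-291b or on the split of reads.

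For miR-293 the ratio was 0.398, 0.420, 0.416, and 0.388 in WT, 0.443, 0.447, 0.403, and 0.338 in CLIPΔ, 0.592, 0.499, 0.501, and 0.487 in *Ago2* KO, and 0.549, 0.533, 0.560, and 0.535 in *Ago2* KO/CLIPΔ mESCs. The 3p arm was the more abundant in all 16 libraries. For miR-294 the ratio lay between 0.00841 and 0.0103 in WT, 0.00828 and 0.0120 in CLIPΔ, 0.0350 and 0.0446 in *Ago2* KO, and 0.0331 and 0.0450 in *Ago2* KO/CLIPΔ mESCs. For miR-295 it lay between 0.00682 and 0.0105 in WT, 0.00765 and 0.00957 in CLIPΔ, 0.0247 and 0.0334 in *Ago2* KO, and 0.0254 and 0.0323 in *Ago2* KO/CLIPΔ mESCs. In these 3 precursors every library without *Ago2* had a higher ratio than every library with it.

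**Figure D3:**
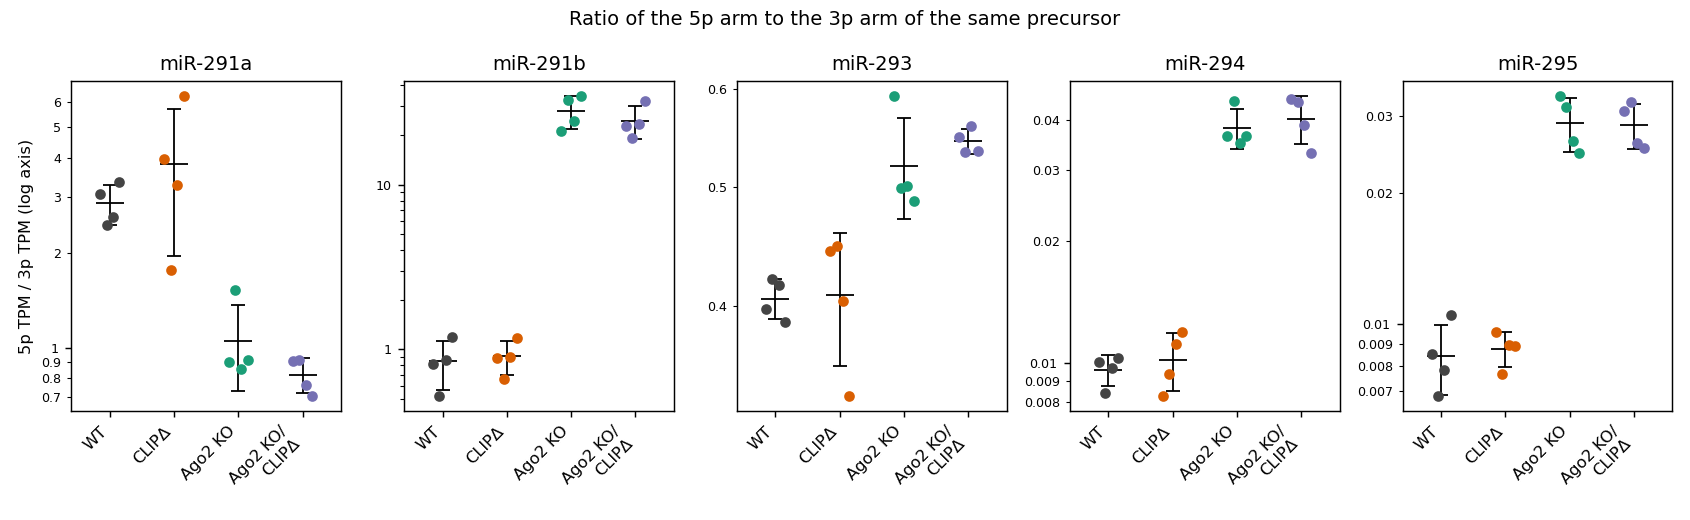
The 5p level divided by the 3p level of the same precursor, on log axes that differ between panels, with 1 point per library and the mean ± SD of 4 libraries in black. The points without *Ago2* lie below the others in miR-291a and above them in the other 4 precursors, farthest in miR-291b.

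The comparison of *Ago2* KO with WT mESCs asks what the loss of Ago2, an Argonaute that holds the guide strand, does to these arms. On the log2(TPM + 1) scale, miR-291a-5p fell by 1.14 (SE 0.123, adjusted p = 6.36e-06 with limma and Benjamini-Hochberg adjustment over 240 miRNAs). miR-291b-5p rose by 3.48 (SE 0.239, adjusted p = 1.64e-07 with limma) and miR-293-5p by 1.62 (SE 0.124, adjusted p = 3.93e-07 with limma). In all, 4 of 5 members passed an adjusted p of 0.05 against 82.9% of all miRNAs tested (3 higher against 50%, and 1 lower against 32.9%), and 4 of 5 did not overlap between the groups against 78.3%, so that the share among the members was near that of the table. The median difference was 0.39 over the members and 0.44 over all 240.

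The fourth member past the threshold was miR-295-5p, with a log2 difference of 0.39 (SE 0.146, adjusted p = 0.0279 with limma). Its call was not stable, since the adjusted p was 0.563 after centring each library on its median and the difference was -0.04 with edgeR on inferred reads. It was also lost without WT library B or C or *Ago2* KO library 1 or 2, with an adjusted p between 0.058 and 0.0867. miR-294-5p did not pass, at 0.31 (SE 0.234, adjusted p = 0.236 with limma). Without WT library D it did, at 0.54 (adjusted p = 0.00555), and with edgeR its difference was -0.20. Centring on the median lowered the median difference of all miRNAs from 0.44 to 0.16, and the directions of miR-291a-5p, miR-291b-5p, and miR-293-5p did not turn under any setting tried.

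In the same fit the 3p arms went different ways. miR-293-3p rose by 1.26 (SE 0.0945, adjusted p = 3.18e-07 with limma), together with its 5p arm. miR-294-3p fell by 1.67 and miR-295-3p by 1.40 (SE 0.177 and 0.103, adjusted p = 5.57e-06 and 2.92e-07 with limma), from 105494 ± 33473 to 32002 ± 1565 TPM and from 224776 ± 29276 to 84686 ± 936 TPM (SD, n = 4). For these precursors the 3p arm was thus lower, whereas the 5p arm differed by 0.31 and 0.39, or by -0.20 and -0.04 with edgeR. miR-291a-3p, at 0.34 (SE 0.149, adjusted p = 0.052 with limma), did not pass, whereas its 5p arm did. The 3p arm of miR-291b fell under the minimum mean of 100 TPM and was not tested, at 108 ± 9.63 TPM in WT and 36.0 ± 5.79 TPM in *Ago2* KO mESCs.

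The ratio of arms was tested over the 53 precursors whose arms both had a mean of at least 100 TPM. miR-291a fell by 1.48 on the log2 scale (SE 0.187, adjusted p = 1.50e-05 with limma). miR-294 rose by 1.98 (SE 0.132, adjusted p = 5.97e-08 with limma), miR-295 by 1.79 (SE 0.154, adjusted p = 5.84e-07 with limma), and miR-293 by 0.35 (SE 0.0916, adjusted p = 0.0035 with limma). All 4 members tested passed, against 81.1% of all precursors, with 3 higher (35.8% of all) and 1 lower (45.3% of all). None of the 4 overlapped between the groups, against 79.2% of all precursors. miR-291b, left out by the filter, had a difference of 5.09 (SE 0.295, adjusted p = 1.00e-08 with limma) in the fit of all 154 precursors without a filter, where 77.9% passed, and its difference was the 10th in size.

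Among the 53 precursors the log2 differences ran from -6.47 to 6.81 with a median of -0.31 and an SD of 2.57, and 39 of them differed by at least 1. The members ranked 22nd (miR-294), 26th (miR-295), 30th (miR-291a), and 47th (miR-293) by size. Outside the cluster, the ratio of miR-130b rose by 6.81 (SE 0.321), that of miR-181c fell by 6.47 (SE 0.217), and that of miR-151 fell by 5.70 (SE 0.25), with an adjusted p from limma of 1.87e-09, 1.84e-10, and 1.17e-09. Shifts of arm use in *Ago2* KO libraries were therefore spread over the table in both directions. Those of the 4 members tested lay between -1.48 and 1.98, well inside its range. miR-291b, which the filter left out, had a larger difference, at 5.09 in the fit without a filter.

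**Figure D4:**
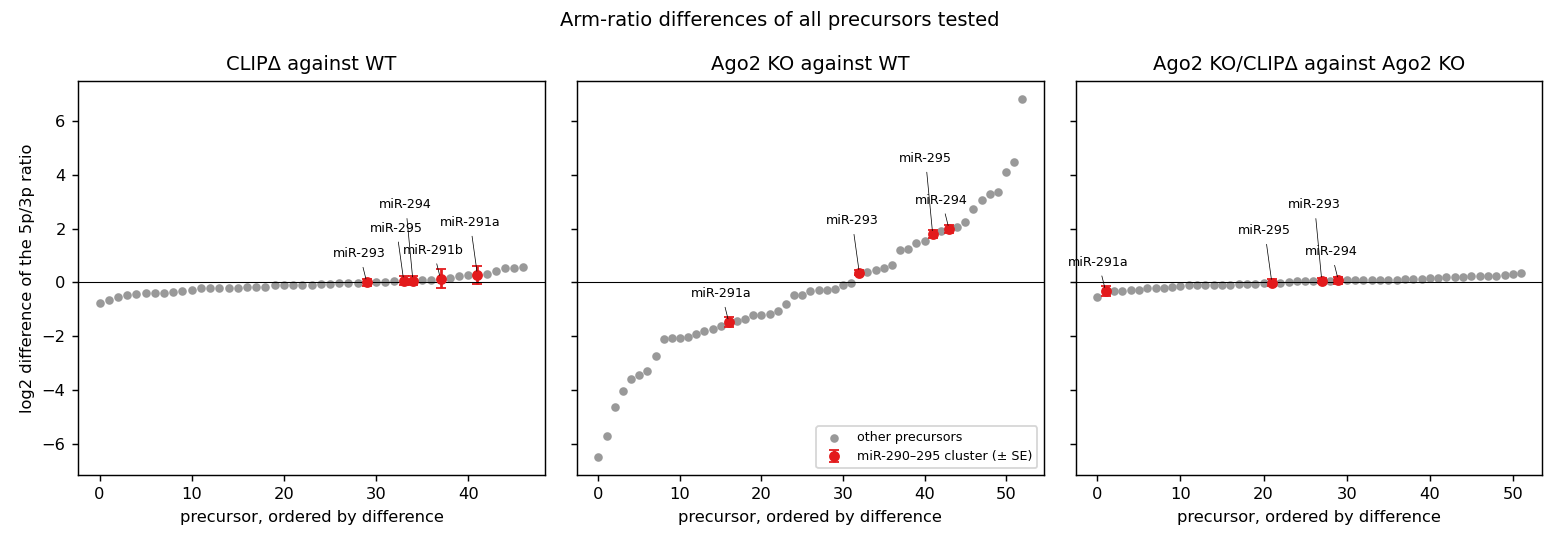
Log2 differences of the 5p/3p ratio for all precursors tested (47, 53, and 52 from left to right), ordered by size, with the cluster in red (± SE) and the others in grey. The spread is widest in *Ago2* KO against WT, where the 4 members tested lie between -1.48 and 1.98, and all values are under 1 in size in the other comparisons.

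The comparison of CLIPΔ with WT mESCs asks what the loss of the Trim71 site in *Ago2* mRNA, with *Ago2* itself intact, does to the arms. miR-291b-5p had the largest difference, 0.83 on the log2 scale (SE 0.281), with an adjusted p of 0.0514 from limma over 227 miRNAs. The others had -0.21 (miR-293-5p, SE 0.220), -0.20 (miR-294-5p, SE 0.279), -0.10 (miR-295-5p, SE 0.150), and 0.08 (miR-291a-5p, SE 0.204), all within their spread. No member passed with limma, against 27.8% of all miRNAs tested, and none was free of overlap, against 30% of the table. At an unadjusted p of 0.05 with limma there was 1, miR-291b-5p, against 39.6% of the table, and edgeR on inferred reads called none.

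WT and CLIPΔ libraries with the same letter deviated together, and with the letter as a block miR-291b-5p passed with an unchanged difference of 0.83 (adjusted p = 0.000976 with limma). With the block 125 of the 227 miRNAs passed, against 63 without it. miR-291b-5p was higher in CLIPΔ than in WT under every letter. It also passed without WT library D (1.05, adjusted p = 0.00761), without CLIPΔ library B (0.97, adjusted p = 0.0347), and without both libraries lettered D (0.92, adjusted p = 0.0101). Its partner miR-291b-3p rose by 0.70 (SE 0.163, adjusted p = 0.00939 with limma), so that the precursor's arms moved side by side. The sign of miR-291a-5p turned without CLIPΔ library D, at -0.10, without WT library B, and after centring on the median, at -0.12.

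No arm ratio passed in CLIPΔ against WT mESCs, neither among the 5 members nor among the 47 precursors tested (0%), and at an unadjusted p of 0.05 limma found none of the members and 3 of the 47 (6.38%). With the letter as a block, 8 of the 47 precursors passed, and 2 did when all 16 libraries shared 1 estimate of the spread, with no member among them in either fit. The members differed by 0.00 to 0.29 on the log2 scale. The largest was that of miR-291a, at 0.29 (SE 0.325, adjusted p = 0.963 with limma). Without both libraries lettered D it was 0.08, and CLIPΔ library D was the library with the highest miR-291a ratio and the lowest miR-293 ratio of all WT and CLIPΔ libraries. It was also the shallowest of these 8, and the part of depth was not tested.

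The same 3′UTR deletion was compared in cells whose *Ago2* coding region was disrupted. miR-291a-5p fell by 0.27 (SE 0.0775, adjusted p = 0.0108 with limma over 232 miRNAs) in *Ago2* KO/CLIPΔ against *Ago2* KO mESCs. The others had log2 differences of -0.25 (miR-295-5p), -0.22 (miR-294-5p), -0.21 (miR-291b-5p), and -0.05 (miR-293-5p), with an adjusted p between 0.0666 and 0.602 from limma. Thus 1 of 5 members passed, against 52.2% of the miRNAs tested, and 1 of 5 did not overlap, against 47.8%. The median difference of the members was -0.22 and that of all miRNAs was -0.17.

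These small differences depended on the model. With edgeR on inferred reads no member passed, and miR-291a-5p had an adjusted p of 0.145, and 0.253 with limma when all 16 libraries shared 1 estimate of the spread. With the number as a block miR-291a-5p (adjusted p = 0.00408 with limma), miR-294-5p (0.033), and miR-295-5p (0.00776) passed. Whether the numbers pair libraries is uncertain. For numbers 1 and 4, the deviations in level correlated at 0.16 and 0.36 with the same number and at up to 0.52 and 0.60 with another. For the arm ratios no member passed (0 of 4 tested with limma, and 0% of 52 precursors), and none had an unadjusted p under 0.05, as 1.92% of the precursors did. Their differences ran from -0.32 (miR-291a, SE 0.169, adjusted p = 0.687 with limma) to 0.07.

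Whether the effect of the CLIPΔ deletion differed with and without *Ago2* was tested as an interaction over all 16 libraries. For miR-291b-5p the difference of differences was -1.04 (SE 0.312, adjusted p = 0.00999 with limma over 249 miRNAs), from differences of 0.83 with *Ago2* and -0.21 without it. No other member passed, so that 1 of 5 did against 49.4% of the table, although miR-291a-5p, at -0.35, passed with the letters and numbers as a block (adjusted p = 0.0282) and without CLIPΔ library B (-0.49, adjusted p = 0.0462). No arm ratio of the 4 members tested passed the interaction test (0% of 55 precursors), and limma found none of them at an unadjusted p of 0.05, against 7.27% of all. With the letters and numbers as a block, 4 of the 55 precursors passed, none of them a member.

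The miRNAs outside the cluster whose log2 level most resembled the log2 sum of the 5p arms were miR-150-5p (Pearson r = 0.949), miR-322-3p (0.929), miR-130b-5p (0.920), miR-25-5p (0.918), and miR-22-5p (0.911). This is a description over 16 libraries and 239 candidates with a mean of at least 100 TPM, and the libraries with and without *Ago2* form separate groups in the 5p sum. The mean of miR-150-5p was 199.6 TPM in WT, 256.0 in CLIPΔ, 773.2 in *Ago2* KO, and 588.9 in *Ago2* KO/CLIPΔ mESCs. miR-130b-5p had 598.1, 490.8, 2596, and 1867 TPM in the same order.

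mRNAs of the proteins that make and hold miRNAs were read from the RNA-seq. *Ago2*, the targeted gene, had 28.2 and 21.6 TPM in WT, 27.3 and 20.3 in CLIPΔ, 1.67, 1.85, 1.97, and 2.29 in *Ago2* KO, and 1.51, 1.72, 2.87, and 2.60 in *Ago2* KO/CLIPΔ mESCs, as the labels say. It fell by 3.13 on the log2(TPM + 1) scale in *Ago2* KO against WT mESCs (SE 0.139, adjusted p = 0.000128 with limma). In CLIPΔ against WT the difference of *Ago2* mRNA was -0.06 (SE 0.237, adjusted p = 0.9997 with limma), and its sign turned without WT library 1 or CLIPΔ library 2. These are mRNA values only. By western blotting, the study reports more Ago2 protein in its CLIPΔ clones than in WT mESCs, with no rise of the mRNA.

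In *Ago2* KO against WT mESCs, 7 of the 10 listed mRNAs that could be tested passed (1 higher and 6 lower), against 57.5% of 11297 genes (14.1% higher and 43.5% lower), and 9 of 10 did not overlap, against 68.4%. Lower were *Dicer1*, the enzyme that cuts the hairpin into a duplex (-1.16), *Ddx5* (-1.06) and *Ddx17* (-0.52), helicases of the Drosha complex, *Dgcr8*, the partner of Drosha (-0.93), and *Ago1*, another Argonaute (-0.59), beside *Ago2* itself. *Tarbp2*, a partner of Dicer, was higher (0.65). *Dicer1* went from 29.2 ± 1.00 (SD, n = 2) to 12.5 ± 0.560 TPM (SD, n = 4) and *Ago1* from 59.6 ± 5.26 to 39.1 ± 2.40 TPM. In every listed mRNA but *Prkra*, *Ago2* KO libraries 1 and 2 stood apart from 3 and 4 without overlap. *Dgcr8*, for example, had 18.4, 18.2, 12.4, and 12.5 TPM. The fits take the libraries as independent replicates, so that their p-values do not allow for this split. What set the libraries apart was not tested. *Drosha* (-0.21), *Xpo5*, the hairpin exporter (-0.18), and *Prkra* (-0.07) did not pass, and *Ago3* and *Ago4* were under the minimum mean of 1 TPM. The median of all genes was -0.26, and centring each library on its median moved it to 0.09, turned *Drosha*, *Xpo5*, and *Prkra* to positive, and ended the calls of *Dgcr8* and *Ddx17*. Without WT library 1, *Dgcr8* was at -0.61 (adjusted p = 0.0857 with limma) and *Ddx5* at -0.68, and without WT library 2 *Drosha* passed (adjusted p = 0.0419 with limma).

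None of the 11 listed mRNAs tested in CLIPΔ against WT mESCs passed with limma, where 0% of 11642 genes did, and 1, *Dicer1*, had an unadjusted p under 0.05, against 5.19% of all genes. With 2 libraries per group, 4 of the 11 did not overlap, against 30.9% of all genes. None of the 10 tested in *Ago2* KO/CLIPΔ against *Ago2* KO mESCs passed, against 3.22% of 10956 genes, and none had an unadjusted p under 0.05, against 18.4%. With the number as a block 804 genes passed in place of 353, again with none of the list. The log2 differences of the list lay between -0.12 and 0.16. In every listed mRNA but *Drosha* and *Xpo5*, *Ago2* KO/CLIPΔ libraries 1 and 2 also stood apart from 3 and 4 without overlap. *Dicer1*, for example, had 11.8, 12.4, 15.6, and 15.5 TPM in libraries 1 to 4. This adds to the spread within the group, and the main fit takes the libraries as independent replicates. What set them apart was not tested.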

How the data were processed

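The members and lists were chosen with earlier results of these data known. The authors aligned reads of both RNA assays to mm10 (HISAT2 2.1.0) and counted them per feature (HTSeq). They deposited 1 column of TPM per library, for 507 miRNAs and for 15034 genes. For CLIP-seq the authors deposited a whole-number count of reads per peak, and only peak positions were used here.

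Columns were matched to genotypes by name. The CLIPΔ columns carry a code, read as CLIPΔ because it is the only genotype left. Features whose mean over the libraries compared reached 100 TPM (miRNAs) or 1 TPM (mRNAs) were tested on log2(TPM + 1), using limma 3.58.1 in R 4.3.3 (lmFit and eBayes, trend on). P-values were adjusted by Benjamini and Hochberg over all features tested, with a threshold of 0.05. Arm ratios used no pseudocount, with the mean log2 level of both arms as trend. Each fit held only the groups compared, and the interaction held 16 libraries.

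Whole reads were inferred from the deposited values, because 98.3% to 100% of 60 low values per library, once multiplied by 1 nt less than the mature length, were multiples of a common step (tolerance 0.02). Lengths came from RefSeq for 442 miRNAs, and 22 nt was assumed for the other 65 in the totals. edgeR 4.0.16 ran on these reads as an alternative. RNA-seq depth is unknown.

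Same-lettered WT and CLIPΔ libraries had deviations from their group means that correlated at 0.35 to 0.74 over miRNA levels, each higher than with any other letter. Same-numbered libraries of the other genotypes correlated at 0.16 to 0.52. Numbers 1 and 4 correlated more with another number, at up to 0.52 and 0.60, so that the numbers were not shown to pair the libraries. Blocks by number are therefore given only as an alternative. Over arm ratios the correlations were 0.34 to 0.81 and -0.14 to 0.52, and over the 4 pairs of *Ago2* KO and *Ago2* KO/CLIPΔ RNA-seq libraries 0.32 to 0.43. Here too some numbers correlated more with another number, namely 1 and 4 over arm ratios (up to 0.58 and 0.62) and 2 and 3 in RNA-seq (up to 0.39 and 0.47). Other alternatives were no filter, another pseudocount, other scalings, all libraries in 1 fit, and each library left out. The fits were also run on simulated data, whose outcome is not given here, and no result above rests on it. Named features are the 5p arms, their 3p arms, the 5 miRNAs most like the 5p sum, 12 pathway mRNAs, and the 3 largest ratio changes outside the cluster per comparison. Figures used Python 3.11.15 and matplotlib 3.10.9.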

Additional observations from a re-analysis of the deposited data

Results flagged for a closer look

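Of 40 groups of 4 libraries examined (the level and the log2 arm ratio of 5 members in 4 genotypes), 3 held a library farther from the others than Dixon's critical value at 95% confidence allows, a value that some groups pass by chance. The log2 5p/3p ratio of miR-291a was 0.61 in *Ago2* KO library 2 and between -0.22 and -0.13 in the other *Ago2* KO libraries. The log2 ratio of miR-294 was -4.49 in the same library and between -4.84 and -4.78 in the others. The log2 ratio of miR-293 was -0.76 in *Ago2* KO library 1 and between -1.04 and -0.997 in the others. The calls of these 3 ratios in *Ago2* KO against WT mESCs stood without each library in turn.

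The CLIPΔ difference of miR-291b-5p differed between cells with and without *Ago2*, by -1.04 on the log2 scale in the interaction test (adjusted p = 0.00999 with limma). It passed under all 21 alternatives, with values between -1.26 and -0.86. The same test was passed by 49.4% of the 249 miRNAs. The difference of 0.83 in cells with *Ago2* did not pass by itself in the main fit (adjusted p = 0.0514 with limma). With the letter as a block it passed (adjusted p = 0.000976 with limma), as did 125 of the 227 miRNAs. The differences with and without *Ago2* also come from sets of libraries of unlike depth.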

How the results depend on the processing

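In 11 counts of called members under 159 alternatives, 145 stayed within 1.5 times, and of 492 alternatives of 36 single results 443 kept direction and side of the threshold. For the levels in CLIPΔ against WT, limma called 1 member in place of 0 with all libraries in 1 fit, with a pseudocount of 10, with the replicate block, and without both libraries lettered D (chosen after seeing the data), and 0 to 1 leaving out each library in turn. In *Ago2* KO/CLIPΔ against *Ago2* KO the count of 1 became 0 with all libraries in 1 fit and with edgeR, 4 with a total that leaves out the cluster, 3 with the replicate block, and 1 to 3 leaving out each library (3 without *Ago2* KO/CLIPΔ library 1, 2 without *Ago2* KO library 4). The interaction count of 1 became 2 with the replicate block and ran from 1 to 2 leaving out each library (2 without CLIPΔ library B). The block changed no other count of members by over 1.5 times. No paired analysis was possible for small-RNA-seq of *Ago2* KO against WT because letters and numbers do not pair; for RNA-seq they share 2 numbers, and the block ended the call of *Ddx17* (adjusted p = 0.0559). In RNA-seq of CLIPΔ against WT, which also share 2 numbers, the block called 333 of 11642 genes in place of 0, with none of the list.

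Signs turned in these single results, and the cause was not tested. In CLIPΔ against WT, miR-291a-5p was -0.12 centred on the median, -0.052 with the total without the cluster, and -0.024 without both libraries lettered D. Leaving out each library it ran from -0.10 to 0.22, miR-293-5p from -0.351 to 0.0020, and miR-294-5p from -0.365 to 0.036. With edgeR, miR-294-5p was -0.20 and miR-295-5p -0.036 in *Ago2* KO against WT, and miR-293-5p was 0.078 in *Ago2* KO/CLIPΔ against *Ago2* KO, where it ran from -0.12 to 0.025 leaving out each library. Centred on the median, *Drosha* was 0.14, *Xpo5* 0.17, and *Prkra* 0.28 in *Ago2* KO against WT. *Ago2* mRNA ran from -0.27 to 0.14 in CLIPΔ against WT and from -0.015 to 0.19 in *Ago2* KO/CLIPΔ against *Ago2* KO leaving out each library. With 1 WT or CLIPΔ RNA-seq library left, it was assumed to vary like the other group.

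Depth limited miR-291b-3p most, at 25 to 44 inferred reads without *Ago2*. Reads are not independent molecules, and such counts cover counting error only.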
